A study of Hernandia nymphaeifolia with 9 samples.

Results

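Of 315331 assembled genes of Hernandia nymphaeifolia leaves, 39 met a rule with limits on level, margin and 7 d mean. They had a 7 d mean within 1.5-fold of control. By a set margin, they were lower in all 3 libraries at 14 d than in any control or 7 d library. They were chosen by their own measured values. A member had a control mean under 500 counts-per-million units (CPM), at least 5 CPM in the lowest of the 3 control and 3 7 d libraries, a lowest value among these 6 libraries at least 1.7 times the highest 14 d library, and the stated limit on the 7 d mean. CPM is the count of a gene, summed over its isoforms and scaled by the total count of its library. The rule thus used all 9 libraries and all 3 comparisons between groups, so the levels of the members are a description and no test is read from them.

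The 9 libraries came from polyadenylated leaf RNA of 2-year-old seedlings, 3 libraries per group. The labels give 3 individuals for each salt level, so the 7 d and 14 d leaves may be from the same seedlings, which is not stated. All seedlings were flooded to branch height for 3 h in every 12 h, in a pattern like a tide. The control group stood in fresh water, and both salt groups in water with 300 mM NaCl, for 7 d or 14 d. Neither the sampling day of the control seedlings nor their genotype is given in the labels, so duration of salt and time in the experiment cannot be told apart. Total counts were 13166552 to 14201943 per library, so that 5 CPM stood for 65.8 to 71.0 counts. The files pair no identifier with a name or function, no list of named genes could be tested, and the leaf label could not be checked against marker genes.

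Hernandia nymphaeifolia is a tree of tropical shores and an associate of mangroves rather than a true mangrove. As general background, salt acts on a leaf in phases. The osmotic effect of salt water comes early and restricts water uptake, stomatal opening and growth, while sodium and chloride build up in leaf cells more slowly and can then disturb metabolism, photosynthesis and leaf life span. The earliest salt samples here were taken at 7 d, so neither phase was measured as such, and no role of these 39 genes in either is known from the files.

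The rule was narrow. The limits on level left 15964 genes, referred to here as genes that met the level conditions. Of these, 12017 had a 7 d mean within 1.5-fold of the control mean, 53 met the limits on level and the margin of 1.7, and 39 met all conditions. The 14 genes lost to the limit on the 7 d mean were 11 with a lower and 3 with a higher 7 d mean. Without the margin, 863 genes had all 14 d libraries below the other 6 while meeting the remaining conditions. The member nearest the margin stood at 1.71 and the first gene outside it at 1.698, whose lowest control or 7 d library was at 37.2 CPM and highest 14 d library at 21.9 CPM. Near the floor, the members began at 5.14 CPM and the first gene outside was at 4.16 CPM. The highest control mean among members was 464 CPM and the next gene outside had 538 CPM. At the limits on the 7 d mean, the members ended at 0.695 and 1.49 times control, and the first genes outside were at 0.657 and 1.63 times.

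Within the limits on level set by the rule, the 39 members ran from scarcer to more abundant transcripts. Their control means ran from 7.99 to 464 CPM, with a median of 40.9 CPM against 25.5 CPM among the 15964 genes that met the level conditions. In control leaves 13 members were under 20 CPM, 18 lay between 20 and 100 CPM, and 8 were above 100 CPM. At 7 d the member means had a median of 31.5 CPM, and at 14 d of 10.9 CPM, with a range of 1.84 to 146 CPM. No member was without counts in any library. The lowest count of any member in a 14 d library was 13, with an exact Poisson 95% interval of 6.92 to 22.2 that covers counting error only.

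**Figure D1:**
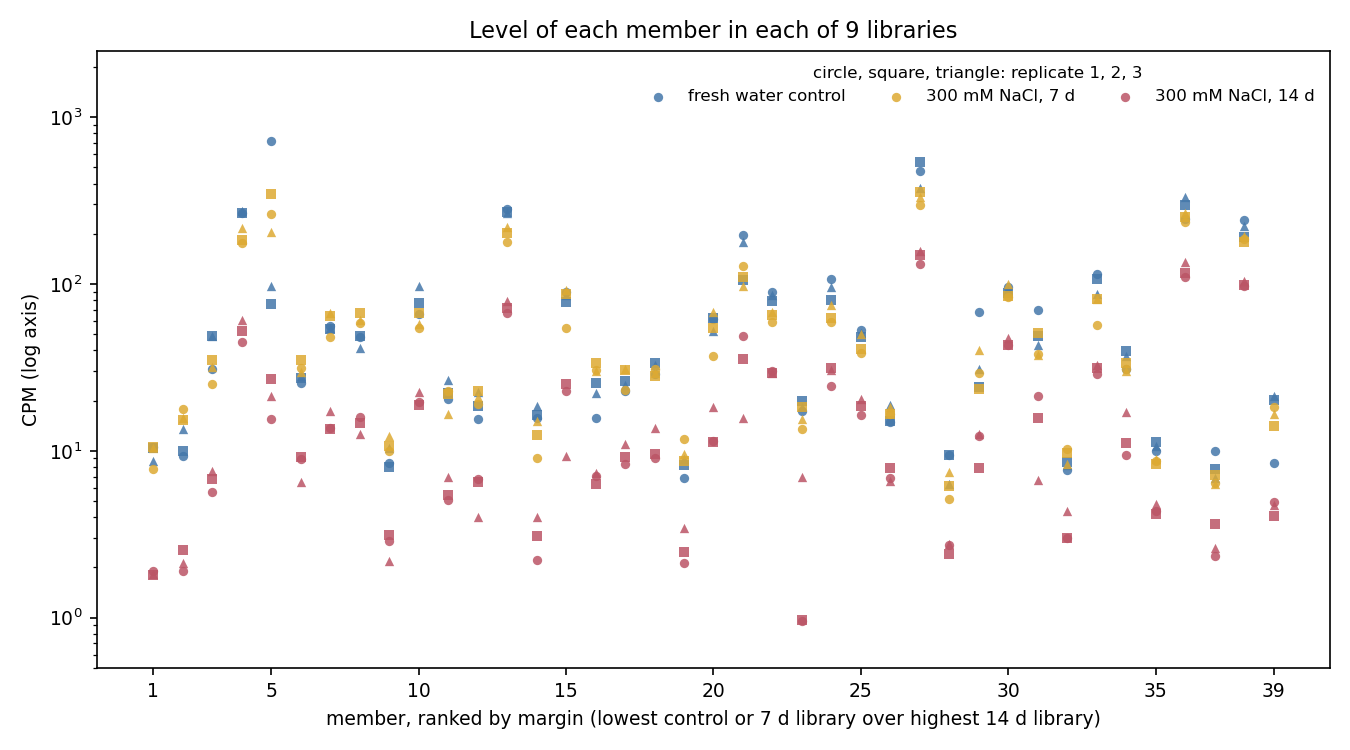
Level of each of the 39 members in each of the 9 libraries, in CPM on a log axis, with members ordered by margin, colours for groups and symbols for replicates. In every member the 3 14 d points lie below the other 6, as the rule requires, and the control points of the member in place 5 span 75.9 to 717 CPM.

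Together the members summed to 3183 ± 418 CPM (SD, n = 3) in control leaves. The sum was 2623 ± 170 CPM (SD, n = 3) after 7 d of salt, and after 14 d it came to 913 ± 41.2 CPM (SD, n = 3). By library the sums were 3666, 2926 and 2958 CPM in control, 2431, 2752 and 2688 CPM at 7 d, and 871, 914 and 953 CPM at 14 d. The groups do not overlap, and the rule by itself places every 14 d sum below every control and 7 d sum. The 8 members above 100 CPM in control leaves weigh most in the sums. Their median 7 d level was 72.4% of control, against 88.1% over all 39 members. Control replicate 1 stood above the other controls by the value of a single member. Without that member the control libraries lay between 2850 and 2949 CPM, the 7 d libraries between 2167 and 2482 CPM, and the 14 d libraries between 856 and 932 CPM. In whole leaves, fewer cells of a type and less RNA per cell cannot be told apart.

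Relative to control, the 14 d mean of the members ran from 7.15% to 48.4%, with a median of 30.5%. Of the 39 members, 10 were left with under 25% of their control level, 23 with 25 to 40%, and 6 with over 40%. The corresponding median over all 15964 genes that met the level conditions was 102%. Against 7 d the 14 d mean was lower by 1.86-fold to 12.8-fold, with a median of 2.98-fold. In a fit over all 62564 tested genes (edgeR quasi-likelihood test, Benjamini-Hochberg adjusted p threshold of 0.05), 39 of 39 members were called lower at 14 d than in control, where 8.40% of all tested genes were called lower. Likewise 39 of 39 were called lower at 14 d than at 7 d, where 4.37% of all tested genes were called. The rule used both contrasts, so these counts carry no support of their own.

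**Figure D2:**
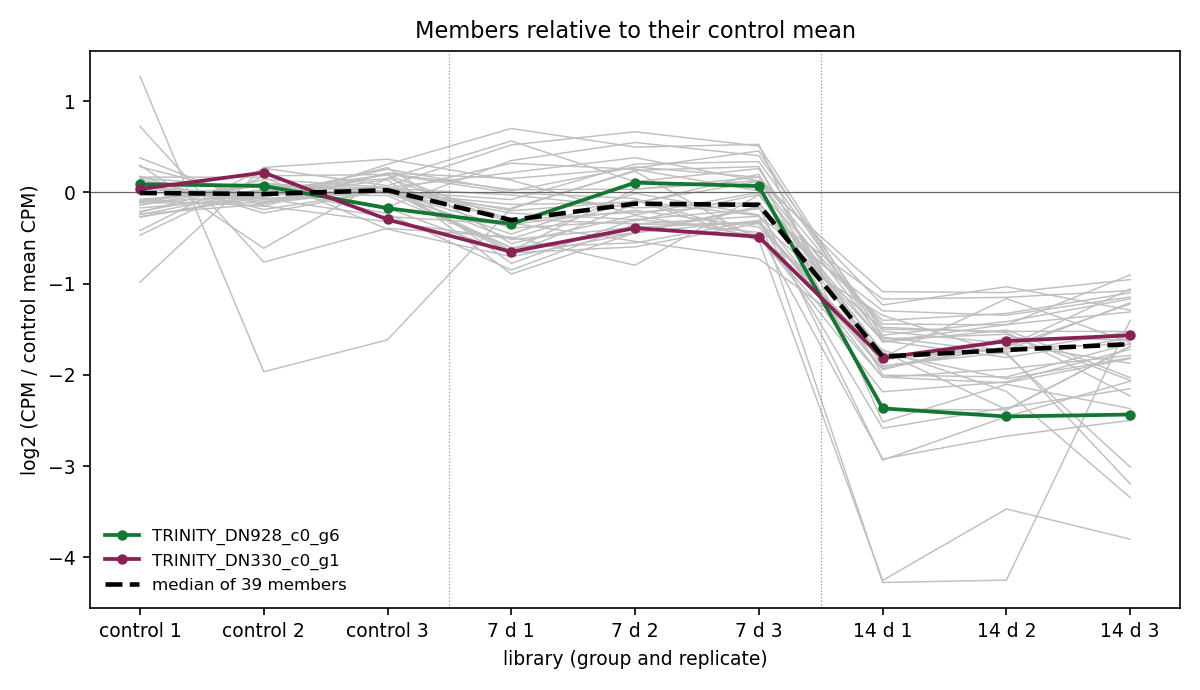
Each grey line joins the values of 1 member across the 9 libraries as log2 of CPM over its control mean; coloured lines mark the 2 named members and the dashed line the median of 39 members. The median lies between -0.02 and 0.02 in control libraries, -0.30 and -0.12 at 7 d, and -1.80 and -1.66 at 14 d.

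Members are named here for the widest margin and for the highest control level. TRINITY_DN928_c0_g6 had the widest margin, 4.06, between the lowest control or 7 d library and the highest 14 d library. It was at 10.5, 10.3 and 8.73 CPM in control leaves, 7.75, 10.6 and 10.3 CPM at 7 d, and 1.91, 1.79 and 1.82 CPM at 14 d. The 7 d values covered the whole control range, and the 14 d libraries were close to each other. Its 14 d counts were 26, 24 and 25, and its mean fell to 18.7% of control. It is assembled as a single isoform.

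TRINITY_DN330_c0_g1 had the highest control mean, 464 ± 81.5 CPM (SD, n = 3). It was at 476, 539 and 378 CPM in control leaves, 296, 354 and 331 CPM at 7 d, and 132, 150.0 and 157 CPM at 14 d. All 7 d libraries were below all controls, and all 14 d libraries below all of these. Its mean was 70.4% of control at 7 d and 31.5% at 14 d. Its group means were thus lower at both times, while the 7 d mean of TRINITY_DN928_c0_g6 was 97.0% of control. Without control replicate 3, TRINITY_DN330_c0_g1 did not meet the rule.

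The member in place 5 by margin had the deepest difference, 7.15% of control at 14 d, and also the least even controls. It was at 717, 75.9 and 96.7 CPM in control leaves, 263, 348 and 206 CPM at 7 d, and 15.6, 26.8 and 21.3 CPM at 14 d. The highest control was 9.45 times the lowest, and the 7 d libraries lay between them. Without control replicate 1 its 14 d mean was 24.6% of control and its 7 d mean 3.15 times control, outside the limit of the rule. For this gene a steady level through 7 d thus rests on control replicate 1.

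The member in place 3 was at 30.9, 48.5 and 49.1 CPM in control leaves, 24.98, 35.0 and 31.6 CPM at 7 d, and 5.65, 6.73 and 7.58 CPM at 14 d, or 15.5% of control. Control replicate 1 fell within its 7 d range, and the other controls were above it. The member in place 23 had a mean of 16.1% of control at 14 d that hides a split: 0.954 and 0.972 CPM in 14 d replicates 1 and 2, against 7.00 CPM in 14 d replicate 3. In control and 7 d leaves it was at 13.5 to 19.8 CPM. Within the 14 d group it was the least even of the 39 members, with 14 d replicate 3 at 7.26 times the mean of the others.

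At 7 d the members were not uniform. The 7 d mean was below the control mean in 28 members and above it in 11, with a median of 88.1% of control, against a median ratio of 1.02 among all genes that met the level conditions. In 8 members all 7 d libraries were below all controls, where 24.1% of the 15964 genes that met the level conditions had this order. In 4 members all 7 d libraries were above all controls, against 26.7% of those genes. In the remaining 27 members the groups overlapped. The limit on the 7 d mean removes large differences, so lower shares than in all genes follow in part from the rule and nothing is read from them.

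**Figure D3:**
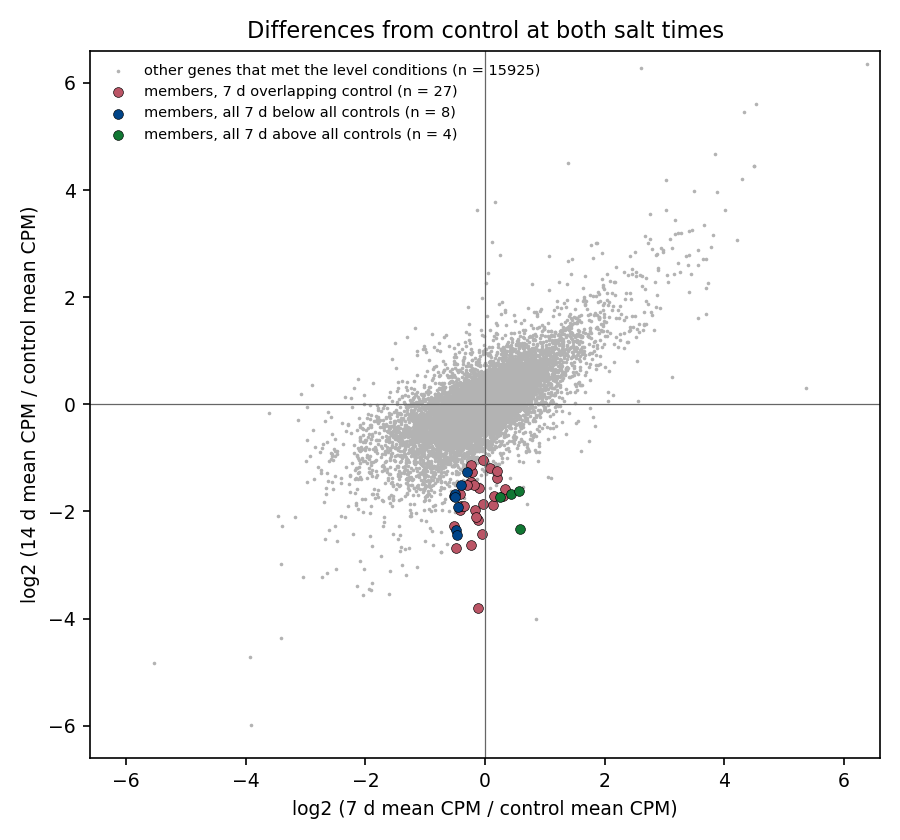
Differences from control at 7 d (x axis) and 14 d (y axis), both as log2 ratios of mean CPM, for the other genes that met the level conditions (grey) and the 39 members, coloured by the position of their 7 d libraries. Members occupy a narrow band around 0 on the x axis and lie from -1.05 to -3.81 on the y axis; both axes share the control libraries.

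By edgeR's quasi-likelihood test, 7 members were called lower at 7 d than in control and 3 were called higher, where 13.9% and 11.3% of all tested genes were called. The name of a change only by 14 d therefore holds for these 10 members by the limit on size, not by that test. The 7 called lower at 7 d had control means of 80.1 to 464 CPM, 7 d means of 69.5 to 75.4% of control and 14 d means of 19.5 to 35.0% of control. The 3 called higher had control means of 10.9 to 46.0 CPM and 7 d means of 135 to 149% of control. These calls depended on single libraries. Counting both directions, 1 member was called without 7 d replicate 1, 3 without 7 d replicate 2 and 6 without 7 d replicate 3. Without control replicate 2, 6 were called. Calls over all tested genes fell as well, from 15765 to 12018, 13222, 11348 and 12662 in the same order. Of the 6 control and 7 d libraries, 7 d replicate 1 was the lowest in 18 of 39 members (46.2%), against 23.9% of all genes that met the level conditions, so it often set the margin.

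The 4 members with all 7 d libraries above all controls included the member in place 2 by margin. It was at 9.27, 9.98 and 13.5 CPM in control leaves, 17.7, 15.4 and 15.7 CPM at 7 d, and 1.91, 2.54 and 2.11 CPM at 14 d. Its 7 d level was 149% of control and its 14 d level 20.0%. The member in place 16 was at 15.8, 25.4 and 22.3 CPM in control leaves, 30.3, 33.5 and 30.1 CPM at 7 d, and 7.05, 6.28 and 7.36 CPM at 14 d. In both, the 3 groups were separate, in the order 7 d, control, 14 d.

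Among the 14 d libraries, replicate 3 was the highest in 24 of 39 members (61.5%) and the lowest in 9. Among all genes that met the level conditions it was the highest in 39.4%. Relative to the mean of the other 14 d libraries it ran from 0.362 to 7.26 times, with a median of 1.10 times. It was over 1.5 times that mean in 4 members and under it by more than 1.5 times in another 4. The rule bounds how high replicate 3 can stand in a member, since all 3 libraries had to pass the margin.

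A further reading came from choosing genes with a library left out and then looking at that library, which that choice did not use. Chosen without 14 d replicate 1, 45 genes met the rule, and replicate 1 lay below all 6 control and 7 d libraries in 45 of them, where it did so in 16.8% of all genes that met the level conditions. Chosen without 14 d replicate 2, 43 genes met the rule, and replicate 2 was below in 42 of them, against 15.0% of all such genes. Their median level in the left-out library was 30.2% of control for replicate 1 and 30.9% for replicate 2, close to the 30.8% and 30.3% in the 14 d libraries that had chosen them. Chosen without 14 d replicate 3, 115 genes met the rule. Replicate 3 was below all 6 in 81 of these 115 (70.4%), against 16.2% of all such genes, and passed the margin of 1.7 in 39. Its median level there was 53.4% of control, with quartiles of 37.6% and 83.8%, while the other 14 d libraries had a median of 33.4%. The number of genes meeting the rule thus moved most with 14 d replicate 3. Leaving out a 14 d library only loosens the rule, so the 39 members were among the genes chosen each time. Those that passed the margin in the left-out library are these members by definition, so that count carries no support of its own. The shares over all such genes include genes that were not lower in the other 14 d libraries. The control and 7 d libraries were used both in the choice and in the comparison, and no test was made.

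**Figure D4:**
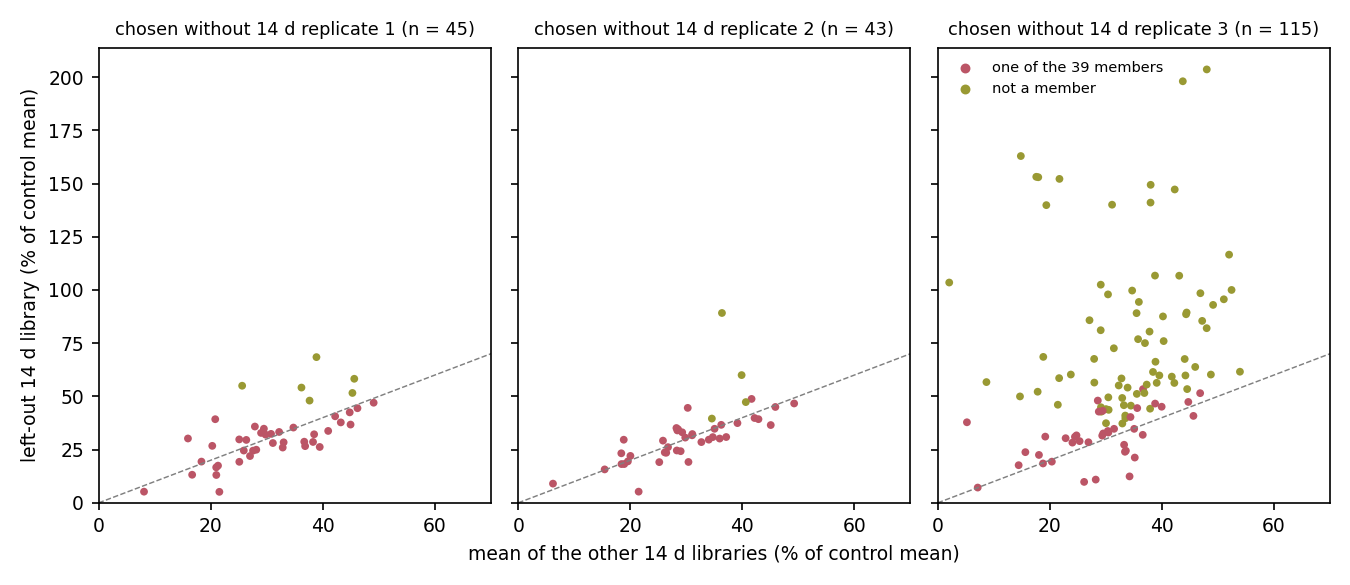
For genes chosen without 1 of the 14 d libraries, the level in the left-out library (y axis) against the mean of the other 14 d libraries (x axis), both in percent of the control mean; the dashed line marks equality. The 45 genes chosen without replicate 1 and the 43 without replicate 2 lie on both sides of the line, 37 and 38 of them within 1.5-fold of it, whereas 58 of the 115 chosen without replicate 3 lie more than 1.5-fold above it, up to 204% of control.

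The control and 7 d libraries were left out in the same way. Without control replicate 1, 54 genes met the rule, and in 47 of them control replicate 1 was above all 14 d libraries, an order found in 28.9% of all genes that met the level conditions in the other libraries. It passed the margin of 1.7 in 42 of the 54. Without 7 d replicate 1, 55 genes met the rule, and in 55 of them that library was above all 14 d libraries, against 34.3% of all such genes, but it passed the margin in 42. Its median level there was 71.2% of control. Without control replicates 2 and 3, 41 and 36 genes met the rule, and each had the left-out library above all 14 d libraries, against 33.4% and 37.5% of all such genes; 36 and 35 passed the margin. Without 7 d replicates 2 and 3, 44 and 38 genes met the rule with the same order in each, against 35.3% and 35.9% of all such genes, and 38 and 34 passed the margin. Of the 39 members, 28 met the rule whichever library was left out, and 11 were lost without at least 1 control or 7 d library.

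The rule took the sum over isoforms, not how this sum was divided. Isoforms are alternative transcripts of a gene as assembled, and reads shared between them are divided by estimation, so a value for 1 isoform is less certain than the sum. The members had a median of 2 isoform rows, against 3 among all genes that met the level conditions, and 13 members had a single row. Of the 105 isoform rows of the members, 93 had enough counts to be tested. Of these 93, 71 were called lower at 14 d than in control, where 5.58% of all tested isoforms were called, and 1 was called higher, against 5.63% of all tested isoforms. The choice of genes with a lower sum largely fixes these counts, and in the 14 members with 1 tested isoform that isoform is nearly the sum itself, so nothing is read from them. In 25 members with 2 or more tested isoforms, all tested isoforms were called lower in 12 and none in 1. The choice of genes bears on these counts too, and the share over all genes was not computed. The isoform with the greatest loss carried a median of 66.3% of the loss from control to 14 d. It carried over 80% in 9 of these members and under 50% in 2.

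Isoform shares, the percentages of a gene's counts in each isoform, were called changed at 7 d against control in 5 of the 25 members (edgeR, per gene), where 16.1% of 18721 tested genes were called. At 14 d against control they were called in 7 of 25, where 9.47% of tested genes were called, and at 14 d against 7 d in 6 of 25, where 7.25% were called. These shares were measured in the same libraries that chose the members, and no more is read from the counts. The main isoform of control leaves had a lower share in all 14 d libraries than in the other 6 in 5 members. Its share was higher in 1 member and overlapping in 19. The 5 include the member in place 23, whose lowest 14 d count was 13. How often all genes have such an order was not computed, so nothing is read from these counts.

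The share was higher in the member in place 8, where 2 isoforms were nearly equal in control leaves. The isoform with the highest control mean held 48.7%, 47.9% and 58.9% of the gene there, and was the more abundant in control replicate 3 alone. With the other isoform taken as the main one, the direction of this share turns and no member has a higher share. The first isoform was at 23.4, 23.3 and 24.2 CPM in control leaves, 21.7, 21.4 and 21.2 CPM at 7 d, and 15.6, 14.3 and 10.9 CPM at 14 d. The second isoform was at 24.2, 24.6 and 16.4 CPM in control leaves, 34.5, 44.8 and 38.0 CPM at 7 d, and 0.220, 0.0748 and 0.146 CPM at 14 d. The higher 7 d level of this gene lay in the second isoform, which held only a few counts at 14 d. The share of the first isoform therefore went from 51.8% in control to 34.7% at 7 d and 94.1% at 14 d.

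In TRINITY_DN330_c0_g1, 3 isoforms were tested and each had all 14 d libraries below the other 6. The most abundant had 360, 410 and 286 CPM in control leaves, 213, 271 and 236 CPM at 7 d, and 85.7, 105 and 111 CPM at 14 d, with no overlap between groups. It held 75.8% of the gene in control leaves and 68.6% at 14 d. The least abundant kept 63.6% of its control level at 14 d, while the most abundant kept 28.6%.

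Some sums that differed little at 7 d held isoforms that did differ. In the member in place 34, the 7 d sum was 88.1% of control. Its minor isoform was at 12.2, 11.7 and 14.1 CPM in control leaves and at 4.92, 4.23 and 3.57 CPM at 7 d, and the main isoform at 18.5, 27.8 and 23.1 CPM and at 26.2, 29.2 and 26.4 CPM. The minor isoform was thus already low in all 7 d libraries, with 1.76, 1.20 and 2.55 CPM at 14 d. In the member in place 39, the 7 d sum was 98.0% of control, but its controls were uneven, at 8.41, 20.1 and 21.4 CPM. Without control replicate 1, 2 or 3 the 7 d mean was 0.786, 1.09 or 1.14 times control. In this member 1 isoform had 0, 0.574 and 0 CPM in control leaves and 4.27, 7.45 and 9.87 CPM at 7 d. That isoform was at 1.47, 1.72 and 1.68 CPM at 14 d and was the only 1 of the 93 called higher at 14 d than in control.

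**Figure D5:**
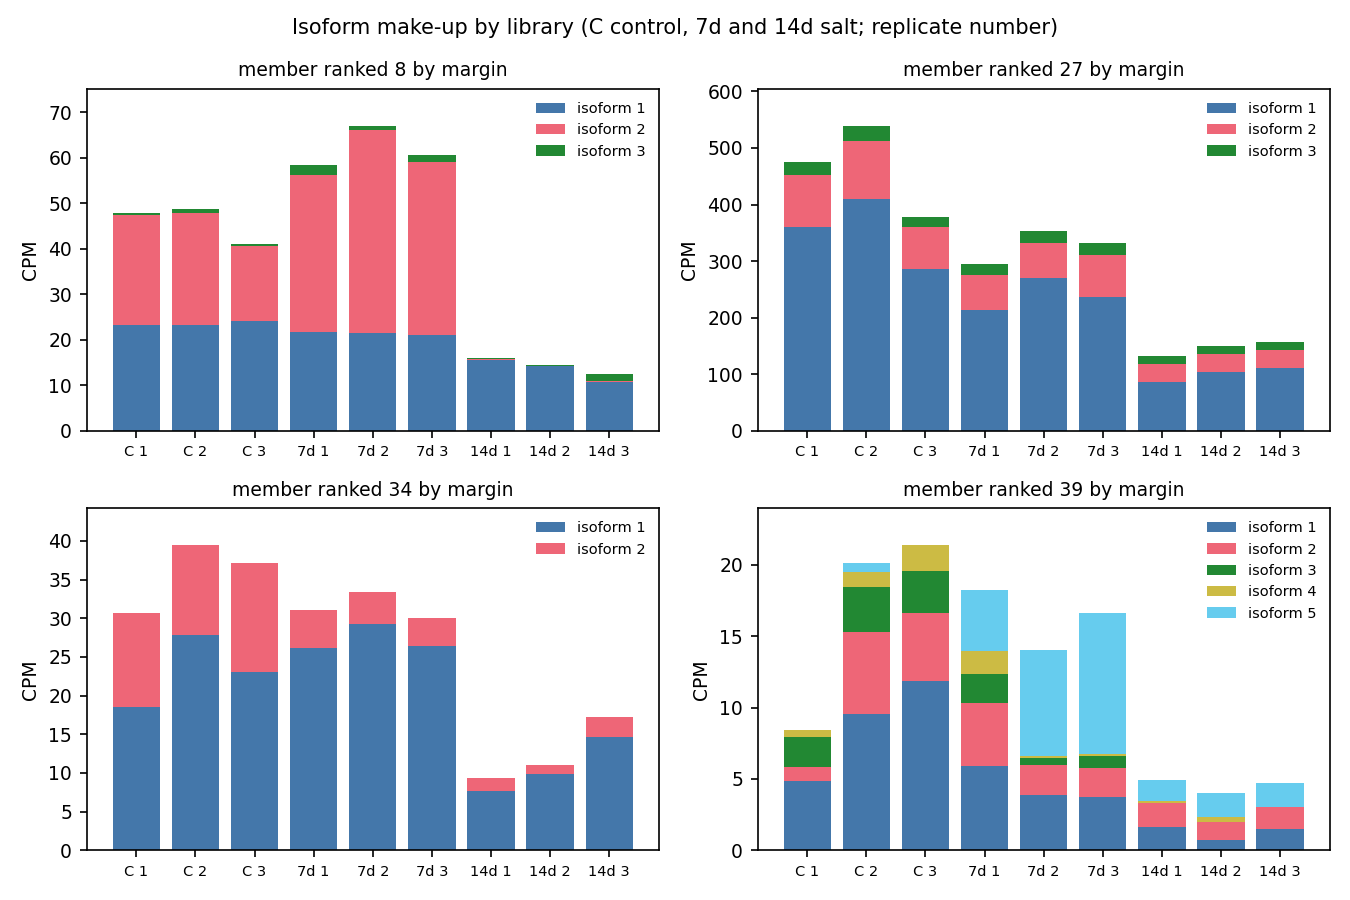
CPM of the tested isoforms, stacked, in each library for the members in places 8, 27 (TRINITY_DN330_c0_g1), 34 and 39 by margin; isoforms are numbered by their control mean, and bars start at 0. In the member in place 8 isoform 2 is at most 0.220 CPM at 14 d, and in the member in place 39 isoform 5 is highest at 7 d.

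The isoforms of the member in place 23 differed in the same way as its 14 d libraries. Its main isoform had 0 CPM in 14 d replicates 1 and 2 and 5.54 CPM in replicate 3, against 11.7 to 18.1 CPM in control and 7 d leaves. The minor isoform had 0.954, 0.972 and 1.46 CPM at 14 d and 1.43 to 1.93 CPM elsewhere. A value of 0 means that no count was assigned and is not proof of absence.

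Several members came from the same assembly cluster, as the shared first parts of their identifiers show. Genes of a cluster share stretches of sequence, so they can be parts of 1 gene, alleles or gene copies, and reads can be divided between them. The 39 members fell into 34 clusters by the first number, and 4 clusters held 9 members. In 1 cluster with 3 members, those in places 4 and 13 were at 267 to 273 CPM and 266 to 283 CPM in control leaves, 177 to 218 CPM and 179 to 220 CPM at 7 d, and 44.9 to 60.6 CPM and 66.9 to 79.1 CPM at 14 d. The third was much scarcer, at 6.34 to 9.41 CPM in control leaves and 2.39 to 2.77 CPM at 14 d. All 3 had a 7 d mean between 71.5% and 74.5% of control.

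In another cluster the members in places 21 and 31 had the same order within the 14 d group. They were at 48.6, 35.4 and 15.8 CPM and at 21.2, 15.8 and 6.70 CPM in 14 d replicates 1, 2 and 3. In both, replicate 3 was the lowest. In a further cluster, the members in places 10 and 11 kept 25.5% and 25.3% of control at 14 d. The members in places 8 and 33, which also share a cluster, were on opposite sides of control at 7 d, with 135% and 70.9%, and came to 31.3% and 30.1% at 14 d.

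Most other assembled genes in these clusters were not called at 14 d. With clusters taken by the first 2 numbers of the identifier, 69 genes that were no members could be tested. Of these, 10 (14.5%) were called lower at 14 d than in control, where 8.40% of all tested genes were called, and 8 were called higher, where 7.97% of all tested genes were called. The 10 lay in 8 of the 24 clusters with such a gene. The median fitted log2 difference of the 69 genes was 0.09, against 0.01 over all tested genes. With clusters taken by the first number alone, as in the counts of members, 14 of 112 such genes (12.5%) were called lower and 12 higher, and the median was -0.03, of the opposite sign.

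The limits of the rule, adapted to other time courses, gave sets of other sizes. With the direction turned, 47 genes were higher at 14 d alone. With 7 d and 14 d exchanged, 236 genes were lower at 7 d alone and 43 were higher at 7 d alone. These counts come from the same control libraries and were not tested against each other.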

How the data were processed

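The authors deposited estimated counts per assembled transcript for 9 leaf libraries, with no scaling applied. FastQC, HISAT2 and Salmon are listed, without roles or versions, in the submitters' processing notes; how the transcripts were assembled is not given in the sources used. Row identifiers have the form Trinity gives to isoforms. The deposited values were whole, taken as rounded estimates, and used as they stood.

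Isoform rows were summed per assembled gene and divided by the column total. Members and lists were chosen with earlier results of these data known. Genes named were fixed as the member with the widest margin and that with the highest control mean. edgeR 4.0.16 in R 4.3.3 was run across all genes (filterByExpr, minimum count 10, minimum total 15; TMM; 1 quasi-likelihood model of the 3 group means; Benjamini-Hochberg adjustment). Isoform shares were tested with its diffSpliceDGE on isoform rows. Both steps were tested on simulated data. Alternatives used DESeq2 1.42.0, limma 3.58.1, other scaling, filters and rule limits, and each library left out. The reading of left-out libraries was added after the data were examined. Replicate pairs differed by 4.43 to 16.5 in chi-square per degree of freedom, so none was a duplicate. Python 3.11.15, pandas 2.3.3, NumPy 2.4.6, SciPy 1.17.1 and matplotlib 3.10.9 were used. The labels' protocols give 3 individuals for each salt level, so the 3 libraries of a group were taken as separate individuals. Whether the 7 d and 14 d libraries share seedlings is not stated, and they were fitted as independent. Intervals cover counting error only.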

Additional observations from a re-analysis of the deposited data

Results flagged for a closer look

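In 4 members all 7 d libraries were above all controls and all 14 d libraries below all controls. The order at 7 d was found in 26.7% of all genes that met the level conditions, a larger share than among the members. The limit on the 7 d mean lowers the share among members, so nothing is read from this. The members in places 2 and 16 did not meet the rule when some single control or 7 d libraries were left out. By edgeR's test the member in place 6 was not called at 7 d. The order at 14 d is required of every member by the rule. The log2 difference from control at 7 d was 0.58 for the member in place 2 by margin, 0.24 for that in place 6, 0.43 for that in place 8 and 0.56 for that in place 16. At 14 d the log2 differences were -2.32, -1.72, -1.68 and -1.62. The rule chose genes on the contrast between the times, so the difference was not tested here.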

How the results depend on the processing

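The number of late-repressed genes followed the limits of the rule. It was 20 with a margin of 2, 67 with a margin of 1.5, 69 with a floor of 1 CPM, 22 with a narrower limit on the 7 d mean, and 60 when the rule was applied to isoform rows, which belonged to 33 of the 39 members or to other genes. The median log2 ratio of 14 d to control, -1.71 for the 39 members, was -1.94 with a margin of 2, -1.52 with a margin of 1.5, -1.79 with a floor of 1 CPM, -1.63 with that narrower limit and -1.89 with none. TMM scaling gave 46 genes and DESeq2 size factors 51, with all 39 members in both. With each library left out in turn the number ran from 36 to 115, the latter without 14 d replicate 3, and the median from -1.72 to -1.58.

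Genes called lower at 14 d than at 7 d ran from 1094 to 3998 with each library left out, against 2736 with all. Leaving out 7 d replicate 1 gave 1531 and 7 d replicate 3 gave 1181, and leaving out 14 d replicate 1 gave 1475 and 14 d replicate 2 gave 1094. The call of a single member was lost without 7 d replicate 3 or 14 d replicate 2. All 39 members were called lower at 14 d than in control under every alternative run. Over all genes tested, 3557 to 6524 were called lower in these runs, against 5253 in the main fit. The rule used both contrasts, so these counts of members carry no support of their own. Genes with changed isoform shares at 14 d ran from 1072, without 14 d replicate 1, to 2021. By Simes p-values, genes with changed shares numbered 1351 at 7 d and 722 at 14 d, against 3017 and 1773. Members called at 7 d numbered 7 with no filter on low counts and 12 with the replicate block, against 10. Over all genes tested, 17417 and 15164 were called at 7 d in these settings, against 15765 in the main fit. The summed level of members at 14 d was 28.7% of control, and 30.9% without the member with uneven controls, a setting chosen after seeing the data.

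The replicate block gave 5021 genes lower at 14 d than control, 2747 lower at 14 d than 7 d, 15164 changed at 7 d, and 2522 and 1392 genes with changed shares at 7 d and 14 d. Deviations of same-numbered libraries had correlations of -0.13 to 0.17, and in 3 of 9 pairs a library correlated best with its own number. Between the 7 d and 14 d libraries, which may share seedlings, the correlations were 0.03, 0.17 and 0.07 for replicates 1, 2 and 3. There, replicates 2 and 3 correlated best with their own number. The numbers were not taken as pairs, and whether the 7 d and 14 d libraries are paired was not tested further. The causes of these differences were not tested. With 13 to 1798 counts in the lowest 14 d library of a member, counting error is largest for the scarce members.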
